A study of Mus musculus with 12 samples.

Results

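The comparison described here is KDP20 at day 10 against vehicle at day 10 in mouse nasal tissue. Its members are 8 of the 12 libraries of the study, chosen by their labels: KDP20 day 10 replicates 1, 2, 3 and 5, and vehicle replicates 2, 4, 5 and 6. The other 4 libraries, KDP20 at day 5, entered the fit to steady its estimate of the spread. The study asked how diesel particles change gene expression in the inflamed nose. All groups were C57BL/6 male mice of 6 weeks, with RNA taken from tissue labelled nasal and a cell type labelled nasal epithelium. Vehicle mice received PBS and the treated mice KDP20. The labels give neither a dose nor a route for KDP20, and nothing in them says that the libraries are from different animals. The p-values therefore speak of the spread among these samples alone.

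The nasal lining joins respiratory epithelium, with ciliated, secretory and basal cells, to olfactory epithelium, with sensory neurons, sustentacular cells and Bowman glands that secrete odorant-binding proteins. Inhaled particles are known to reach both, and the reactions studied in such tissue include oxidative and aryl hydrocarbon responses, recruitment of neutrophils and other leukocytes, mucus secretion and loss of barrier. In a table of gene counts, a row whose exons lie across from those of a gene on the other DNA strand can hold that gene's reads when the strand of a read is not kept, or when a library that keeps strand is counted with the opposite setting.

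Each of the 55487 rows of the count table was therefore read together with any protein-coding gene on the opposite strand, where exons of the pair overlapped by at least 50 bases. Such rows are called opposite rows below, and most are named with their opposite gene. Of 1950 tested rows of noncoding genes that lay opposite a coding gene, 1647 (84.5%) held more counts over the 8 libraries than the coding gene's own row. Gm11175, which lies wholly within the AP-1 gene Jund, held 1692 to 2442 CPM in vehicle, counts per library scaled to a common total, against 106 to 129 for Jund. Counting with the strand setting opposite to the library's would place reads of a coding gene in such rows. That setting is not given in the sources used here, so which strand the counted RNA came from was not settled. Neither name is proof of which gene was transcribed, and a gene's own row, with or without a gene opposite, need not hold its mRNA. The extent of the overlap varied. The row Gm11505 lay over Mpo, myeloperoxidase, with 69.5% of its exon bases. The corresponding share was 65.0% for Gm44560 over the ubiquitin ligase gene Ube3a, 27.7% for Gm15587 over Nos3, endothelial nitric oxide synthase, and 21.7% for Gm26788 over Dst, dystonin. For Hps3 over Cp it was 1.2%, for E230029C05Rik over Eed 4.4% and for Gm26885 over Pim1 7.4%. It was 7.6% for Gm49544 over H1f0, 7.7% for 1700034H15Rik over Slc30a1 and 8.1% for A330084C13Rik over Nedd4l.

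The stretches below show what such sharing means for 4 rows that the results turn on. Each is 1 coding exon of the named gene, read 5′ to 3′ on the gene's strand from the GENCODE M21 transcripts (GRCm38, the same assembly as mm10), and capitals mark the bases that also belong to the row on the other strand.
Mpo exon 10 of 14, row Gm11505, chr11:87801030-87801285, plus strand: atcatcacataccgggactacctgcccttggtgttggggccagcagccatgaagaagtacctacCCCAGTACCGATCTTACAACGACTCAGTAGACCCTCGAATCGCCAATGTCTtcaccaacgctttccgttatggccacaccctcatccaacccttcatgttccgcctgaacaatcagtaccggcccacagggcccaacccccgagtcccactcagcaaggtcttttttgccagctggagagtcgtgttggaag
Nos3 exon 25 of 26, row Gm15587, chr5:24383530-24383724, plus strand: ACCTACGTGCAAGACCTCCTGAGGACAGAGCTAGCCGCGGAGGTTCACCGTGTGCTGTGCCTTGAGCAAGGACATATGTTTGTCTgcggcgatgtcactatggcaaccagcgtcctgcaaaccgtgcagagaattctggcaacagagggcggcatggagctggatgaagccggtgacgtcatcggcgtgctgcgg
Ube3a exon 6 of 11, row Gm44560, chr7:59286054-59286259, plus strand: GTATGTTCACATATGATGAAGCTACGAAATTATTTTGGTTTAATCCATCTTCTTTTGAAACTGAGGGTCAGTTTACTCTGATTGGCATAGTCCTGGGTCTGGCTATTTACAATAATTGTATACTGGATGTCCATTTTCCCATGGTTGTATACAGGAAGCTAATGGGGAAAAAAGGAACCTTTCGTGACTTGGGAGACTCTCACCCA
Dst exon 25 of 98, row Gm26788, chr1:34169164-34169321, plus strand: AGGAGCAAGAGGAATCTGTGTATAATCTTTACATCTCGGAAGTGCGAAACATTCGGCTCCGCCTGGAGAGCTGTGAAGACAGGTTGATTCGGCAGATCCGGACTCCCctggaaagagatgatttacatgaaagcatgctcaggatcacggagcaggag
The Ube3a exon is shared whole. In the other 3 an exon of the row ends inside the gene's exon, with 51 shared bases of 256 in Mpo, 85 of 195 in Nos3 and 107 of 158 in Dst. The exons differ in composition, since 39.3% of the Ube3a bases are G or C, against 50% in Dst, 55.1% in Mpo and 59.0% in Nos3.

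Depth was 1993550 to 3227138 counts per vehicle library and 1658420 to 2036661 per day 10 library. Against these raw totals 3 counts, taken as the detection floor, stood at 0.930 to 1.81 CPM. Row values use TMM-scaled library sizes, on which the same 3 counts come to a somewhat different CPM. Floors and intervals cover counting error alone. The row CT010467.2 took 7.25%, 7.40%, 10.1% and 9.87% of counts in vehicle replicates 2, 4, 5 and 6. In day 10 replicates 1, 2, 3 and 5 it took 11.2%, 25.5%, 17.9% and 22.9%. All 4 day 10 libraries lay above all 4 vehicle libraries, with replicate 1 close to vehicle and the others well above it. The mean share was 19.4% ± 6.32 at day 10 and 8.66% ± 1.55 in vehicle (SD, n = 4), a difference of 10.7 points with a two-sided exact permutation p of 0.0286, the smallest that 4 against 4 can give. The widest 95% Wilson interval of a share was ± 0.0658 points. The identifier of this row is not in the annotation used. Its clone neighbour CT010467.1 is annotated as ribosomal RNA and was called higher too, at 307, 1685, 635 and 334 CPM in day 10 replicates 1, 2, 3 and 5 against 207, 466, 229 and 287 in vehicle.

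At an adjusted p under 0.05, the edgeR quasi-likelihood test with Benjamini-Hochberg adjustment called 933 of 13181 tested rows (7.08%), 518 higher (3.93%) and 415 lower (3.15%) at day 10. Day 10 replicate 1 stood apart from the other 3. Among rows called higher, it lay above the whole vehicle range in 302, against 517, 508 and 511 for replicates 2, 3 and 5. Among rows called lower it lay below that range in 261, against 409, 405 and 412. On a log2 scale from the vehicle mean to the mean of replicates 2, 3 and 5, replicate 1 had gone a median of 31.5% of the way over the 933 rows, with quartiles of 13.3% and 54.4%. It had gone under 25% of the way in 388 of them. Pairs with replicate 1 also differed most in their counts, by 10.97 to 22.4 times the variance from counting alone, against 5.01 to 6.83 for the other day 10 pairs and 3.17 to 6.90 for vehicle pairs. Replicate 1 was also the day 10 library with the lowest CT010467.2 share. Of the 933 called rows, 538 had groups of 4 that did not overlap, as had 9.98% of all tested rows (4.98% higher, 5.01% lower).

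**Figure D1:**
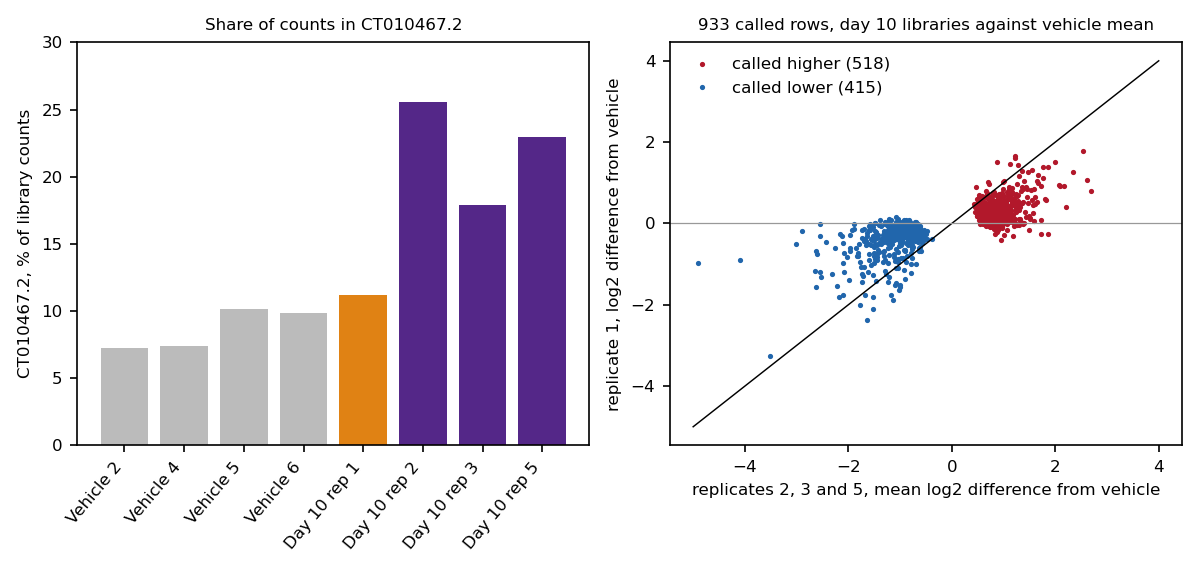
Left, the share of each library's counts in the row CT010467.2, in percent, for the 4 vehicle libraries (grey), day 10 replicate 1 (orange) and day 10 replicates 2, 3 and 5 (purple). Right, for each of the 933 called rows, the log2 difference from the vehicle mean of replicate 1 (vertical) against that of the mean of replicates 2, 3 and 5 (horizontal); the diagonal marks equality, and most points lie between it and the line at 0, as replicate 1 had gone a median of 31.5% of the way.

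Direction followed the base composition of the rows. Of 707 tested rows whose longest transcript had a GC content under 40%, 9 were called higher (1.27%) and 118 lower (16.7%). Of 3034 rows at 55% or more, 273 were called higher (9.0%) and 6 lower (0.198%). The 3 bins between changed step by step, from 29 higher and 163 lower at 40% to 45%, over 68 and 91 at 45% to 50%, to 134 and 37 at 50% to 55%. Median log2 fold changes ran from -0.47 in the lowest bin to 0.25 in the highest. With each library corrected for GC content, edgeR called 328 rows higher and 75 lower. Neither the fit nor the bins separate composition from the genes that have it.

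**Figure D2:**
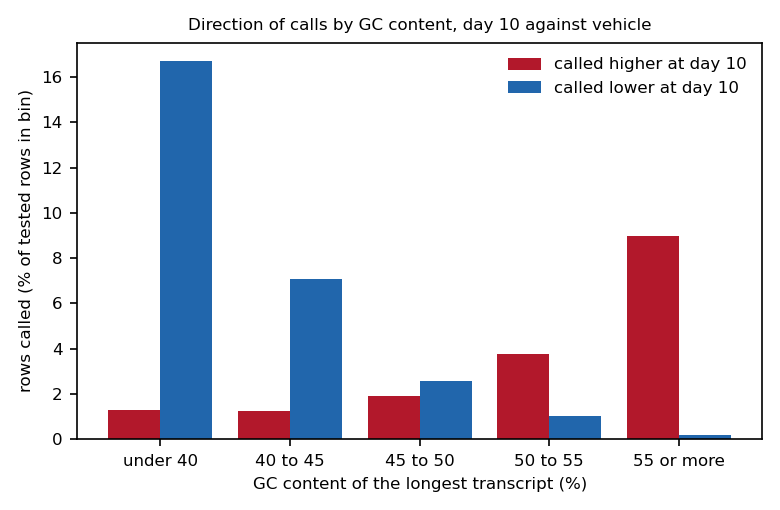
Share of tested rows called higher (red) or lower (blue) at day 10, in percent of the rows in each bin, by GC content of the longest transcript. Rows called lower fall from 16.7% of the lowest bin to 0.198% of the highest, and rows called higher go from 1.27% to 9.0%.

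Rows opposite protein-coding genes held most of the calls. Of 3981 such rows tested, 511 were called (12.8%), 348 higher (8.74%) and 163 lower (4.09%). Rows of protein-coding genes with no gene opposite gave 195 calls (3.95%), 101 higher (2.05%) and 94 lower (1.9%) of 4938. The median log2 fold change was 0.08 for the opposite rows and 0.03 for these coding rows. Coding rows with a noncoding gene opposite gave 35 higher and 18 lower of 1300. The 2962 rows of other gene types had a median of -0.27, with 34 called higher and 140 lower. Rows with any gene opposite held 66.4% to 68.2% of counts in vehicle and 54.9% to 66.8% at day 10. The kinds of row were not compared at equal depth, so the shares called do not show that they responded differently. In bulk tissue, fewer cells of a type and less RNA per cell cannot be told apart, and this holds for every row below. Values per library are in CPM of the TMM-scaled library size, given for vehicle replicates 2, 4, 5 and 6 and then for day 10 replicates 1, 2, 3 and 5.

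The 10 largest rises among opposite rows whose groups did not overlap lay across from genes of varied function, and each rose in the test. E230029C05Rik, opposite Eed, a subunit of the Polycomb repressive complex that methylates histone H3, held 12.9, 8.11, 19.8 and 9.96 CPM in vehicle and 22.1, 42.6, 38.3 and 30.8 at day 10 (log2 fold change 1.42 with an SE of 0.27, Benjamini-Hochberg adjusted p 0.00657 in edgeR). All 4 day 10 libraries exceeded the highest vehicle library, with replicate 1 the lowest of them. Cdk19os (chr10:40348508-40350103, minus strand), opposite Cdk19, a kinase of the Mediator complex, held 17.8, 24.3, 22.3 and 37.6 CPM in vehicle. At day 10 it held 50.9, 69.3, 57.8 and 70.8 (log2 fold change 1.28 with an SE of 0.21, adjusted p 0.00500 in edgeR). Replicate 1 had gone 73.98% of the way of the other 3, one of the larger shares in this group.

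Gm15587 (chr5:24366192-24383614, minus strand), opposite Nos3, whose enzyme makes the vasodilator nitric oxide, went from 58.5, 65.4, 49.7 and 66.6 CPM to 72.5, 167, 152 and 162 (log2 fold change 1.20 with an SE of 0.19, adjusted p 0.00500 in edgeR). Replicates 2, 3 and 5 lay far above vehicle, while replicate 1, the library with the lowest CT010467.2 share of the 4, had gone 19.7% of the way. The row Gm15918, opposite Xkr6, of the XK-related membrane protein family, held 34.03, 19.9, 26.9 and 32.6 CPM in vehicle and 43.7, 67.3, 69.7 and 97.1 at day 10. 1700069B07Rik, opposite the deubiquitinase gene Usp31, held 12.9, 9.51, 22.3 and 19.02 and then 27.8, 64.5, 28.9 and 41.1. In both rows replicate 1 was the lowest day 10 library, above all of vehicle.

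Rows across from GTPase regulators were among them. Fam98c, opposite Rasgrp4, a Ras activator known from mast cells, held 70.96, 35.5, 53.8 and 62.5 CPM in vehicle and 88.5, 136, 93.5 and 159.9 at day 10, and 2810025M15Rik, opposite Rasal2, a Ras inhibitor, held 25.7, 26.6, 30.96 and 30.8 and then 37.5, 75.5, 64.02 and 75.4. Ankrd13a, which binds ubiquitin chains on internalised receptors, lies across from 4930515G01Rik, at 14.1, 11.2, 18.8 and 18.6 and then 27.8, 48.1, 30.8 and 44.5 CPM. 5330438I03Rik, opposite Ildr2, an immunoglobulin-like membrane protein, differed from the rest in that replicate 2, not replicate 1, was its lowest day 10 library, at 26.2, 19.9, 38.3 and 43.4 CPM against 14.9, 11.5, 14.2 and 15.8 in vehicle. A330084C13Rik, opposite Nedd4l, the ligase that limits the epithelial sodium channel, rose as well (log2 fold change 1.10 with an SE of 0.26, adjusted p 0.0156 in edgeR). Without day 10 replicate 5 the calls of 5330438I03Rik, A330084C13Rik and Fam98c were lost, 2 calls were lost without day 10 replicate 2, and 1 was lost without vehicle replicate 2. All 10 kept their calls with the GC correction.

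**Figure D3:**
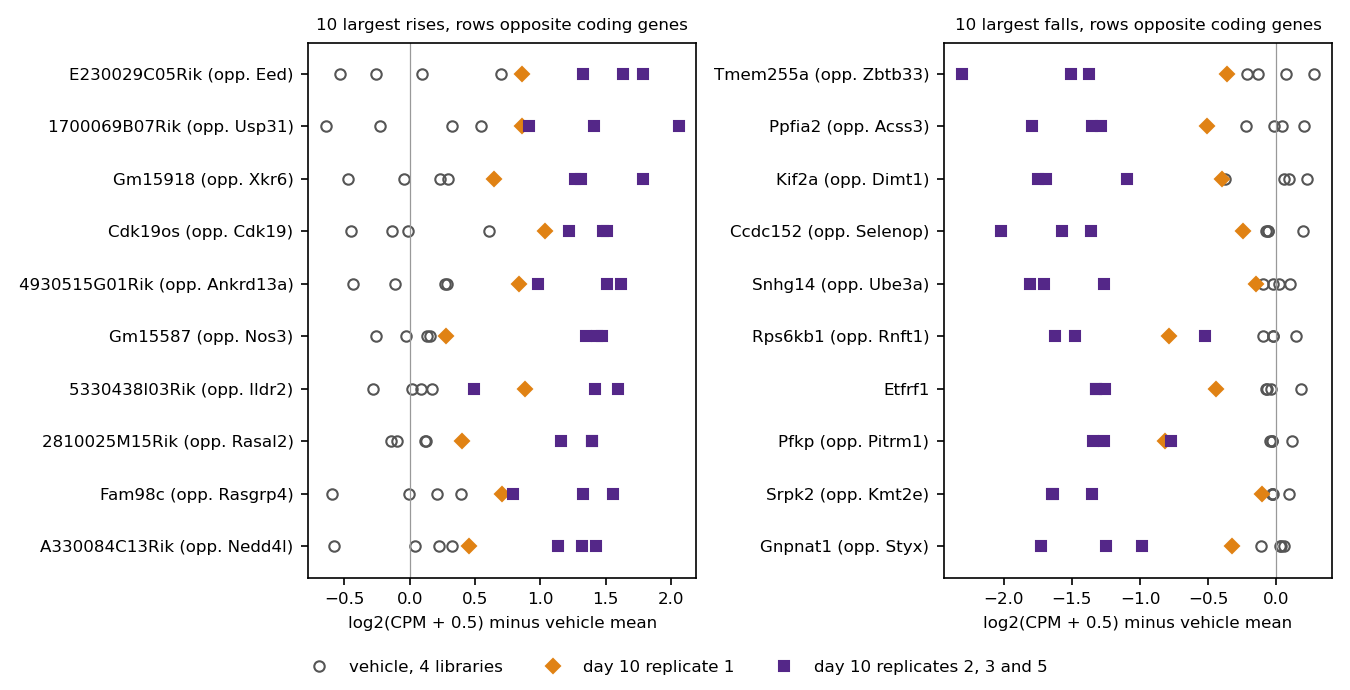
Log2(CPM + 0.5) of each library minus the vehicle mean for the 10 largest rises (left) and 10 largest falls (right) among rows opposite protein-coding genes, with the opposite gene in brackets where it is named. Open circles are the 4 vehicle libraries, the orange diamond is day 10 replicate 1 and purple squares are day 10 replicates 2, 3 and 5; the diamond lies between the circles and the squares in most rows, close to the circles in Srpk2 and among the squares in Pfkp.

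The 10 largest falls were rows of protein-coding genes across from other coding genes, apart from the long noncoding Snhg14. Ppfia2, a liprin of the presynaptic active zone, lies opposite Acss3, a mitochondrial acyl-CoA synthetase, and its row went from 337, 293, 393 and 351 CPM to 239.7, 98.2, 133 and 139 (log2 fold change -1.16 with an SE of 0.19, Benjamini-Hochberg adjusted p 0.00500 in edgeR). The groups were well apart, and replicate 1 lay between vehicle and the other 3. Ccdc152, which overlaps Selenop, the gene of the plasma selenium carrier, held 310, 313, 375 and 314 CPM in vehicle and 276, 80.3, 127 and 109.7 at day 10. Its replicate 1 lay just under the vehicle range. The row of the splicing kinase Srpk2, opposite the methyltransferase-family gene Kmt2e, stood at 259.8, 259, 283 and 260.5 CPM and then 246, 85.1, 104 and 84.5, with replicate 1 6.93% of the way.

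Pfkp (chr13:6579768-6648777, minus strand), the platelet form of phosphofructokinase in glycolysis, opposite the mitochondrial protease gene Pitrm1, behaved differently across libraries. It held 48.97, 48.9, 54.3 and 48.5 CPM in vehicle and 28.3, 20.6, 19.5 and 29.1 at day 10 (log2 fold change -1.03 with an SE of 0.19, adjusted p 0.00608 in edgeR), with replicate 1 72.3% of the way and close to replicate 5. Rps6kb1, the S6 kinase of the mTOR pathway, opposite Rnft1, held 35.3, 35.2, 39.6 and 33.5 and then 20.6, 24.7, 11.3 and 12.6 CPM. There replicate 2 was the day 10 library nearest to vehicle. Only 1.8% of the exon bases of Rps6kb1 lie across from Rnft1.

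Etfrf1, a regulator of the mitochondrial electron-transfer flavoprotein, held 69.7, 69.4, 82.7 and 71.1 CPM and then 53.5, 28.8, 28.9 and 30.3 (log2 fold change -1.03 with an SE of 0.19, adjusted p 0.00557 in edgeR). Replicate 1 lay apart from the other day 10 libraries, toward vehicle. The rows Tmem255a, Kif2a, a microtubule-depolymerising kinesin, and Gnpnat1, an enzyme of the hexosamine pathway, lie opposite Zbtb33, Dimt1 and Styx and had log2 fold changes of -1.22, -1.14 and -0.98. In these rows replicate 1 had gone 20.8%, 26.4% and 24.7% of the way. Without day 10 replicate 5, 7 of the 10 calls were lost, and those of Ppfia2, Etfrf1 and Pfkp held. Without day 10 replicate 2, 1 was lost. The GC correction ended the calls of Gnpnat1, Kif2a, Rps6kb1 and Snhg14.

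Among genes with no gene opposite, 6 rises and 6 falls were named. Dach1 (chr14:97786853-98169765, minus strand), a developmental transcriptional repressor, held 25.3, 24.3, 40.6 and 31.7 CPM in vehicle and 51.96, 67.3, 70.3 and 94.8 at day 10 (log2 fold change 1.23 with an SE of 0.21, Benjamini-Hochberg adjusted p 0.00500 in edgeR). Every day 10 library was above every vehicle library. Il31, the itch cytokine of T cells, lies inside the span of Lrrc43 on the other strand without sharing exons, and held 18.3, 15.4, 8.63 and 18.1 and then 20.1, 49.4, 35.8 and 47.4 CPM (log2 fold change 1.32 with an SE of 0.29, adjusted p 0.0108 in edgeR). Its replicate 1 was less than 2 CPM above the highest vehicle library. Hcn2, a pacemaker cation channel, Plcb2, the phospholipase of taste and tuft cell signalling, Marchf9, a membrane ubiquitin ligase, and Ccdc188 rose by 1.11, 1.11, 1.09 and 1.16 on the log2 scale. Plcb2 held 18.3, 10.3, 11.2 and 16.8 CPM in vehicle and 18.5, 37.8, 37.03 and 29.1 at day 10, so its replicate 1 adjoined vehicle replicate 2.

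The falls without an opposite gene included housekeeping, secreted and lymphocyte genes. Uba6 (chr5:86109287-86172803, minus strand), an E1 enzyme that activates ubiquitin and the ubiquitin-like FAT10, held 32.8, 39.7, 38.1 and 33.97 CPM in vehicle and 18, 4.81, 6.91 and 15.4 at day 10 (log2 fold change -1.64 with an SE of 0.29, Benjamini-Hochberg adjusted p 0.00500 in edgeR). Mrps35, of the small mitochondrial ribosomal subunit, held 37.4, 32.4, 30.4 and 29.9 and then 20.1, 1.37, 11.3 and 6.28 CPM, with the lowest of these at 2 counts. Abi3bp, an extracellular matrix protein, held 25.3, 30.8, 33.5 and 30.8 and then 15.9, 11.7, 15.1 and 6.85, and replicate 1 stood with the others at 61.4% of the way.

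Reg1, a secreted lectin of regenerating epithelium, held 85.5, 78.3, 97.95 and 102 CPM in vehicle and 74.1, 28.1, 42.7 and 30.8 at day 10 (log2 fold change -1.03 with an SE of 0.23, adjusted p 0.0121 in edgeR). Tigit, an inhibitory receptor of T and NK cells, held 40.2, 21.3, 22.3 and 24.9 and then 15.9, 8.24, 12.6 and 18.9 (log2 fold change -0.95 with an SE of 0.28, adjusted p 0.0440 in edgeR). In Tigit vehicle replicate 2 was far above the other vehicle libraries. Among these 12 rows, 9 calls were lost without day 10 replicate 5, and those of Dach1, Uba6 and Abi3bp held. The number lost was 6 without day 10 replicate 2 and 3 without day 10 replicate 3. It was 3 without vehicle replicate 2 and 2 without each of vehicle replicates 4, 5 and 6. The GC correction ended the calls of Hcn2, Marchf9, Plcb2 and Tigit, and Tigit was also lost with limma-voom and in a fit of the 8 libraries alone.

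Lists of genes for the cells and pathways of the nose gave 382 tested rows, own and opposite together. Of these 28 were called higher and 25 lower, which is 13.9% against 7.08% of all rows, with a median log2 fold change of 0.04 against -0.01. The lists were chosen with earlier results of these data known, so that share supports nothing by itself. No list had more than 5 called rows of 1 kind. The counts of each list below stand beside 3.93% of all tested rows called higher and 3.15% called lower. Among all rows opposite a protein-coding gene these shares were 8.74% and 4.09%.

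**Figure D4:**
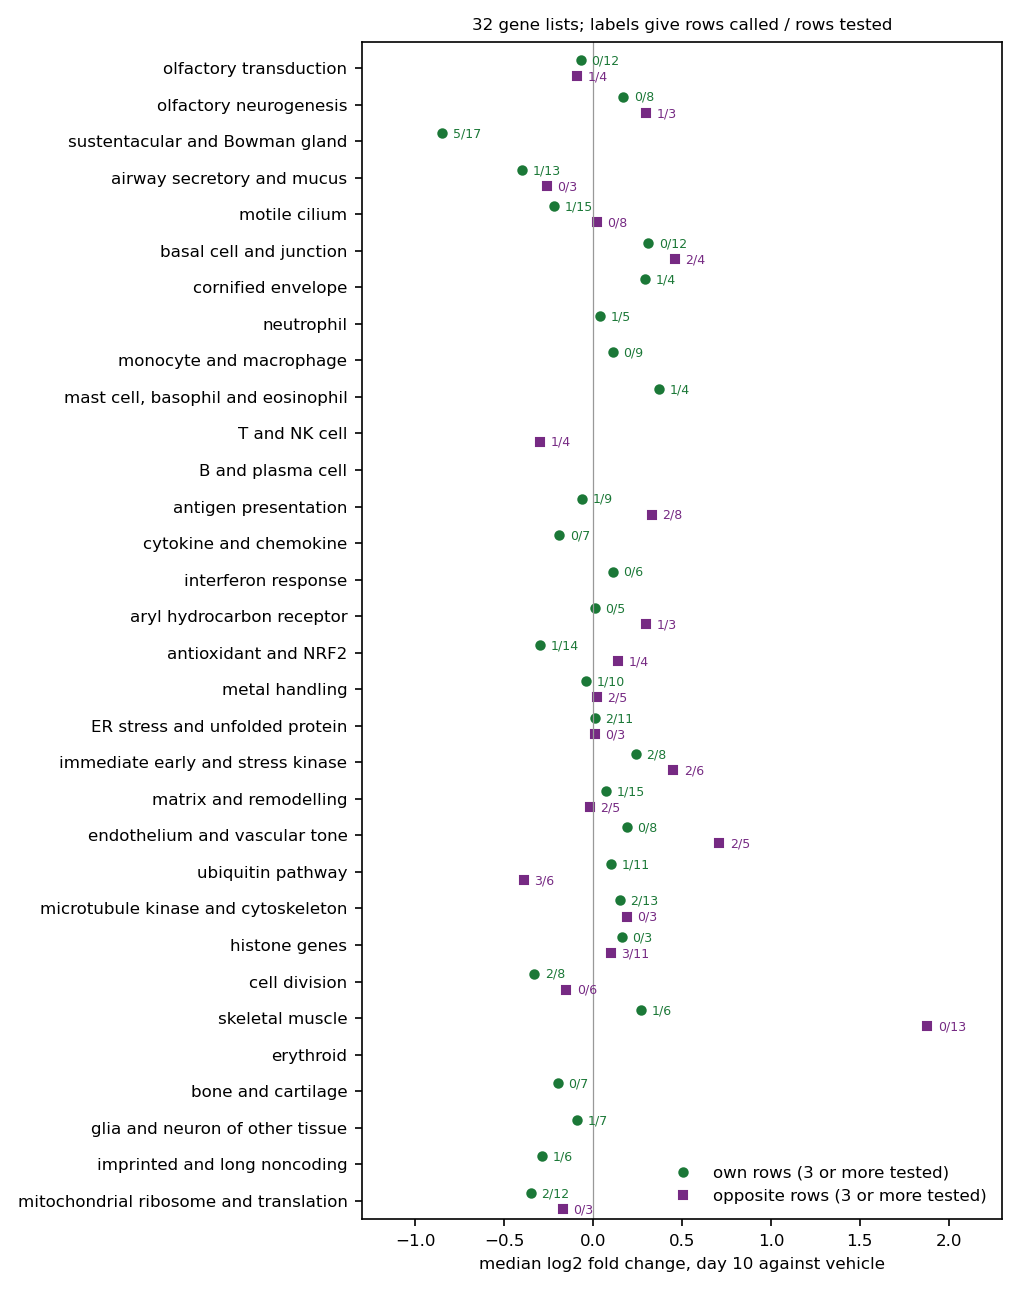
Median log2 fold change at day 10 against vehicle of each gene list with 3 or more tested rows, for the genes' own rows (green circles) and the rows opposite them (purple squares), with the number of rows called over the number tested. The sustentacular and Bowman gland genes lie lowest by own rows, at -0.85 with 5 of 17 called, and the rows opposite skeletal muscle genes lie highest, at 1.88 with 0 of 13 called.

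Of 17 tested sustentacular and Bowman gland genes, 5 fell, 0 rose and 12 did not pass the test by their own rows, with a median log2 fold change of -0.85, against 3.15% of all rows called lower and a median of -0.01. Their summed level ran from 639 to 1233 CPM in vehicle and from 215 to 586 at day 10, so the ranges did not overlap. Obp2a alone held 315 to 725 CPM of the vehicle sums, and its own groups did not overlap. The sums therefore need not describe the other genes. Obp2a (chr2:25700043-25703326, plus strand), an odorant-binding lipocalin, held 442, 384, 315 and 725 CPM in vehicle and 279, 209, 192 and 35.4 at day 10 (log2 fold change -1.38 with an SE of 0.37, adjusted p 0.0270 in edgeR). Replicate 5 was far below the other day 10 libraries, and replicate 1 was the nearest to vehicle. The call was lost without day 10 replicate 2, 3 or 5, without vehicle replicate 2 or 6, and with the DESeq2 test. The rule names 4 members of a list, and the fifth call was Obp1b, with a log2 fold change of -1.29. The 1 opposite row tested, Galnt5 across from Ermn, was called lower as well, at -0.70.

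The lipocalin Lcn4 held 21.2, 11.8, 13.7 and 29.4 CPM in vehicle and 14.4, 4.12, 5.65 and 0.571 at day 10 (log2 fold change -1.55 with an SE of 0.45, adjusted p 0.0392 in edgeR). Bpifb3 and Bpifb6, of the bactericidal/permeability-increasing fold family, are neighbours on chromosome 2. Bpifb3 held 17.4, 30.5, 9.13 and 21.3 and then 6.17, 13.04, 6.91 and 6.28 CPM (log2 fold change -1.32 with an SE of 0.38, adjusted p 0.0379 in edgeR). Bpifb6 held 14.5, 13.4, 5.08 and 12.2 and then 3.60, 6.87, 2.51 and 1.14 (log2 fold change -1.72 with an SE of 0.47, adjusted p 0.0311 in edgeR). All 3 overlapped between the groups, and in both Bpifb genes the overlap came from vehicle replicate 5 and day 10 replicate 2. Replicate 1 was not near vehicle in these, at 137% of the way in Bpifb3 and 82.3% in Bpifb6.

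Airway secretory and mucus genes gave 1 call of 13 by own rows and 0 of 3 by opposite rows, with medians of -0.40 and -0.26. Scgb1c1 (chr7:140845547-140846769, plus strand), a secretoglobin found in olfactory mucosa, which shares exon bases with the noncoding C330022C24Rik, held 55.6, 65.7, 12.7 and 50.7 CPM in vehicle and 18.5, 17.2, 14.4 and 5.71 at day 10 (log2 fold change -1.74 with an SE of 0.42, adjusted p 0.0167 in edgeR). Vehicle replicate 5 lay inside the day 10 range, and the other 3 vehicle libraries were far above it. Gm15883, opposite Cyp2f2, the cytochrome P450 of airway secretory cells, held 21100 to 27600 CPM in vehicle and 17910 to 22070 at day 10. It did not pass the test (log2 fold change -0.26 with an SE of 0.13, adjusted p 0.206 in edgeR).

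Olfactory neuron genes gave 0 calls of 12 by own rows, with 0 at an unadjusted p under 0.05 in edgeR, and a median of -0.07. Their summed own level was 340 to 497 CPM in vehicle and 367 to 508 at day 10. Of 4 rows opposite them, 1 was called: Mppe1, opposite Gnal, the G protein alpha subunit of odour transduction, held 3548, 3735, 4656 and 3948 CPM and then 3448, 2010, 2992 and 2576 (log2 fold change -0.53 with an SE of 0.15, adjusted p 0.0338 in edgeR). Replicate 1 lay just under the lowest vehicle library. A separate list of olfactory neurogenesis genes gave 0 calls of 8 by own rows, with a median of 0.17, and 1 of 3 by opposite rows, with a median of 0.30. That call was Gm11149, opposite the neural cell adhesion gene Ncam1, which rose, with 2925, 2634, 3845 and 3622 CPM in vehicle and 3540, 4530, 4671 and 5535 at day 10 (log2 fold change 0.49 with an SE of 0.14, adjusted p 0.0381 in edgeR). Here replicate 1 lay inside the vehicle range.

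Ciliated-cell genes gave 1 call in 15 own rows and 0 in 8 opposite rows, with medians of -0.22 and 0.02. That call, Ccdc39, a ruler protein of the axoneme opposite Ttc14, held 257, 249, 231 and 237 CPM in vehicle and 245, 85.8, 122 and 92.5 at day 10 (log2 fold change -0.83 with an SE of 0.21, adjusted p 0.0221 in edgeR). Replicate 1 was inside vehicle and the other 3 were well below it. Among basal cell and junction genes, 0 of 12 own rows and 2 of 4 opposite rows were called, both opposite Dst, which anchors keratin filaments to hemidesmosomes.

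Gm26788 (chr1:34165856-34178446, minus strand), which shares the Dst exon printed above, held 513, 547, 548 and 442 CPM in vehicle and 583, 822, 702 and 923 at day 10 (log2 fold change 0.56 with an SE of 0.14, adjusted p 0.0177 in edgeR). A930005N03Rik, another row across from Dst, held 155, 141, 172 and 149.9 and then 170.3, 293, 279 and 340.4 (log2 fold change 0.81 with an SE of 0.16, adjusted p 0.00748 in edgeR). In both, replicates 2, 3 and 5 lay above all of vehicle and replicate 1 near its top. The cornified envelope gene Lor, loricrin, held 29.1, 32.4, 65.98 and 45.3 CPM and then 58.1, 112, 95.4 and 109.7 (log2 fold change 1.13 with an SE of 0.23, adjusted p 0.00824 in edgeR), with replicate 1 below vehicle replicate 5.

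Of 10 epithelial calls in the last paragraphs, leaving Obp2a aside, 8 were lost without day 10 replicate 5, 6 without day 10 replicate 3 and 5 without day 10 replicate 2. Losses came to 8, 6, 1 and 7 without vehicle replicates 2, 4, 5 and 6. The GC correction ended those of Ccdc39, Lcn4 and Lor. A fit of the 8 libraries alone ended 6, those of Bpifb3, Bpifb6, Ccdc39, Gm11149, Lcn4 and Mppe1, and limma-voom ended those of Bpifb3, Bpifb6 and Scgb1c1.

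Immune genes showed calls in both directions. Neutrophil genes gave 1 call of 5 by own rows (Mmp9, higher) and 1 of 2 by opposite rows (Gm11505, lower). Gm11505 (chr11:87795784-87801144, minus strand), which lies over Mpo, the peroxidase of neutrophil granules, held 2.90, 18.5, 6.09 and 19.9 CPM in vehicle. At day 10 it held 0.514, 0, 0.628 and 0.571, and replicate 1 lay with the others. In counts this was 129 over the vehicle libraries and 3 over those of day 10, so the rate was 28.5 times higher in vehicle, and counting error alone (95%) places it between 9.55 and 140.0. The fitted value was -4.59 on the log2 scale (adjusted p 0.0103 in edgeR). Vehicle itself spread widely, with replicate 2 at the bottom, and the call was lost without day 10 replicate 5.

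Mmp9, a gelatinase stored in neutrophil granules and made by other cells, held 152, 147, 200.5 and 146 CPM in vehicle and 190.3, 272, 249.8 and 269.6 at day 10 (log2 fold change 0.61 with an SE of 0.15, adjusted p 0.0189 in edgeR). Vehicle replicate 5 exceeded day 10 replicate 1. Hdc, histidine decarboxylase, which makes histamine in mast cells and basophils, held 203, 138, 173 and 211 and then 229, 218, 263 and 309 CPM (log2 fold change 0.49 with an SE of 0.15, adjusted p 0.0496 in edgeR). Its groups came within 7 CPM of each other without overlapping. It was 1 of 4 tested own rows of mast cell, basophil and eosinophil genes, which had a median of 0.37.

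Gm33460, opposite Eomes, a T-box factor of NK cells and CD8 T cells, held 10.8, 8.67, 16.8 and 11.3 CPM in vehicle and 4.12, 4.12, 3.14 and 1.14 at day 10 (log2 fold change -1.89 with an SE of 0.46, adjusted p 0.0167 in edgeR). Replicate 1 matched replicate 2 here, and day 10 lay wholly below vehicle. Cd247, the CD3 zeta signalling chain of T cells, whose row lies opposite the transcription factor gene Pou2f1 with 56.4% of its exon bases, held 378, 376, 351 and 376 and then 378, 231, 219.7 and 240.4 (log2 fold change -0.47 with an SE of 0.14, adjusted p 0.0468 in edgeR). In that row replicate 1 equalled the highest vehicle library.

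The antigen presentation list, which holds the neighbouring gene Brd2, a bromodomain reader of acetylated histones, gave 1 call higher in 9 own rows and 2 in 8 opposite rows, with medians of -0.06 and 0.33. Both opposite rows called lie across from Brd2, and none across from another gene of the list was called. One of them is the row of H2-DMa, which loads peptides on class II molecules, and it is also the own row called, so the list held 2 called rows and not 3. H2-DMa held 164, 147, 200 and 182 CPM and then 171, 318, 254 and 304, with replicate 1 inside vehicle. Gm50336, a row wholly within Brd2, held 34.03, 27.1, 29.9 and 40.8 and then 47.8, 63.9, 49.6 and 62.2 (log2 fold change 0.76 with an SE of 0.21, adjusted p 0.0326 in edgeR), and there replicate 1 was above all of vehicle.

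Cytokine and chemokine genes gave 0 calls in 7 own rows and 0 in 1 opposite row, where edgeR had 1 and 1 at an unadjusted p under 0.05. Interferon-response genes gave 0 in 6 and 0 in 2, with 0 and 0 at that unadjusted level. Macrophage genes gave 0 in 9 own rows with 2 unadjusted, and a median of 0.11. Their summed level was 425 to 462 CPM in vehicle and 470 to 581 at day 10, which did not overlap. Of single rows, 9.98% did not overlap between the groups, and the sum need not describe each gene in it. All 7 immune calls were lost without day 10 replicate 5, 5 without day 10 replicate 2 and 4 without day 10 replicate 3. Losses came to 5, 5, 4 and 4 without vehicle replicates 2, 4, 5 and 6, and the GC correction ended those of Cd247, Gm50336, H2-DMa and Mmp9. The 8 libraries alone ended those of Cd247, H2-DMa and Hdc, and limma-voom that of Gm11505. In the fit of the 8 libraries 6 of the 7 rows were tested. Gm11505 was too low there to pass the filter, so it has no result in that fit.

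Stress and vascular genes gave a few called rows, in both directions. The GC correction ended the calls of Jund, Gm11175, Gm26885, Pim3 and Gm28523 among them. Immediate early and stress kinase genes gave 2 calls higher and 0 lower in 8 own rows and the same in 6 opposite rows, with medians of 0.24 and 0.45. Over all tested rows 3.93% were called higher, with a median of -0.01. Over all rows opposite a protein-coding gene it was 8.74%, with a median of 0.08. Jund, an AP-1 subunit, was called by both of its rows. The opposite row Gm11175, wholly within Jund, held 1904, 1692, 2442 and 2400 CPM in vehicle and 2669, 3595, 2727 and 3356 at day 10 (log2 fold change 0.55 with an SE of 0.14, adjusted p 0.0181 in edgeR), and Jund's own row held 111, 107, 129 and 106 and then 112, 222, 166 and 178 (log2 fold change 0.58 with an SE of 0.16, adjusted p 0.0335 in edgeR). Replicate 1 was above vehicle in the first row and inside it in the second.

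For the serine/threonine kinases Pim1 and Pim3, which act downstream of cytokine receptors, the called rows were of different kinds. Gm26885 lies opposite Pim1 with 7.4% of its exon bases, and opposite AC163629.2 too. That row held 109.6, 119.7, 143 and 135 CPM in vehicle and 174, 168, 158 and 202 at day 10 (log2 fold change 0.47 with an SE of 0.14, adjusted p 0.0459 in edgeR). Pim3 by its own row held 2.08, 1.96, 2.03 and 4.08 and then 7.20, 9.61, 13.8 and 6.28 (log2 fold change 1.85 with an SE of 0.49, adjusted p 0.0246 in edgeR), near the floor in vehicle. In both rows replicate 1 stood within the other day 10 libraries, at 99.4% and 79.2% of the way.

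Aryl hydrocarbon receptor genes gave 0 calls in 5 own rows (1 unadjusted) and 1 in 3 opposite rows. That call was 4931440P22Rik (chr3:65507257-65529379, minus strand), opposite Tiparp, an ADP-ribosyltransferase that the receptor induces and that restrains it. The row held 29.1, 20.98, 23.9 and 24.9 CPM in vehicle and 42.7, 43.2, 32.01 and 42.3 at day 10 (log2 fold change 0.70 with an SE of 0.20, adjusted p 0.0368 in edgeR), with replicate 3, not replicate 1, nearest to vehicle. Its overlap with Tiparp covered 5.0% of its bases. Antioxidant genes gave 1 call lower in each kind of row, of 14 and 4. These were Ccdc152 over Selenop and Taldo1, transaldolase of the pentose phosphate pathway. Taldo1 held 4.98, 6.71, 3.04 and 7.70 CPM in vehicle and 2.06, 0.686, 0 and 1.14 at day 10, with 59 and 7 counts in all.

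The vascular list gave 2 calls higher in 5 opposite rows and 0 in 8 own rows, with medians of 0.71 and 0.19. Opposite rows were called higher more often over the whole table too. It was 8.74% of rows opposite a protein-coding gene, against 2.05% of coding rows with no gene opposite. Beside Gm15587 over Nos3, Gm28523, opposite the phosphodiesterase gene Pde3a, held 2.90, 1.96, 5.08 and 2.72 CPM and then 6.17, 12.4, 9.41 and 11.4 (log2 fold change 1.66 with an SE of 0.50, adjusted p 0.0467 in edgeR). The zinc exporter gene Slc30a1, a target of metal-sensing MTF1, was called by both of its rows. Its own row held 10.8, 5.87, 12.2 and 6.79 CPM in vehicle and 12.3, 30.2, 19.5 and 25.1 at day 10, and 1700034H15Rik across from it held 43.99, 38.9, 59.9 and 53.5 and then 61.2, 119, 80.3 and 112. In both rows replicate 1 lay within 2 CPM above the highest vehicle library.

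Proteostasis genes of the endoplasmic reticulum gave 1 call in each direction in 11 own rows. Edem1, which directs misfolded glycoproteins to degradation, held 2.90, 1.68, 1.01 and 0.906 CPM in vehicle and 5.14, 6.87, 7.53 and 8.00 at day 10, 17 and 46 counts in all. The chaperone Canx, calnexin, held 61, 84.5, 53.8 and 54.4 and then 50.4, 30.9, 36.4 and 31.4 CPM (log2 fold change -0.77 with an SE of 0.19, adjusted p 0.0196 in edgeR). Hps3, of the BLOC-2 complex of lysosome-related organelles, held 185, 229.6, 199 and 225 and then 203, 74.2, 92.9 and 102. It shares 1.2% of its bases with the ceruloplasmin gene Cp, through which it entered the metal list, where 1 of 10 own rows and 1 of 5 opposite rows rose and 1 opposite row fell. All 12 vascular and stress calls named here beside Gm15587 and Ccdc152 were lost without day 10 replicate 5, without day 10 replicate 2 and without vehicle replicate 4. Losses came to 10, 3 and 8 without vehicle replicates 2, 5 and 6 and to 8 without day 10 replicate 3. The GC correction ended 7, those of Canx, Gm11175, Gm26885, Gm28523, Hps3, Jund and Pim3. The 8 libraries alone ended those of 4931440P22Rik, Gm11175, Gm26885 and Jund. That fit tested 11 of the 12 rows, as Taldo1 was too low there to pass the filter.

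The 3 rows across from Ube3a were all called lower, so the ubiquitin list stood at 3 lower of 6 opposite rows, with a median of -0.39. Ube3a is the imprinted ligase of Angelman syndrome, and Snhg14 is the long transcript that runs antisense to it in neurons. Snhg14 (chr7:59307924-59975759, minus strand) held 658, 626, 718 and 678 CPM in vehicle and 603, 191, 278 and 204 at day 10 (log2 fold change -1.06 with an SE of 0.23, adjusted p 0.0102 in edgeR). Gm44560, whose bases include the whole Ube3a exon printed above, held 308, 239, 325 and 325 and then 278, 116, 175 and 172 (log2 fold change -0.68 with an SE of 0.18, adjusted p 0.0223 in edgeR). The third row, 9330162G02Rik, held 1207, 1197, 1281 and 1226 and then 1104, 690, 767 and 809.9 (log2 fold change -0.54 with an SE of 0.13, adjusted p 0.0155 in edgeR).

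These rows share 1 locus and are not independent. All have a low GC content, at 31.0%, 29.3% and 34.6%, the range where most called rows were lower. In all of them replicate 1 lay near vehicle, at 9.4%, 9.62% and 21.7% of the way. By own rows, the ubiquitin list had 1 call lower in 11, Uba6, and a median of 0.10.

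Matrix genes gave 1 call higher in 15 own rows, Mmp9, and 1 in each direction in 5 opposite rows. Syn3, a synapsin, contains the gene of Timp3, an inhibitor of metalloproteinases, on its other strand. Its row held 3513, 3282, 4662 and 3954 CPM in vehicle and 4015, 1229, 1552 and 1603 at day 10 (log2 fold change -0.87 with an SE of 0.24, adjusted p 0.0273 in edgeR). Replicate 1 lay inside vehicle and the other 3 lay far below it. The row 2810430I11Rik, across from 99 bases of the collagen gene Col5a1, held 103, 67.96, 127 and 136 and then 162, 161, 161 and 182 CPM (log2 fold change 0.63 with an SE of 0.16, adjusted p 0.0233 in edgeR), with replicate 1 level with replicates 2 and 3.

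The microtubule-affinity kinases Mark3 and Mark4 were both called higher by own rows, 2 of 13 in their list. Mark3 held 7.05, 6.43, 6.09 and 4.98 CPM in vehicle and 14.4, 19.9, 10.7 and 18.3 at day 10 (log2 fold change 1.35 with an SE of 0.33, adjusted p 0.0186 in edgeR), with replicate 1 above replicate 3. Mark4 held 1.66, 4.75, 3.04 and 2.72 and then 6.17, 16.5, 5.02 and 12.6 (log2 fold change 1.65 with an SE of 0.48, adjusted p 0.0379 in edgeR), a few counts per library in vehicle. The 6 calls in the rows opposite Ube3a (beside Snhg14), Timp3 and Col5a1 and of the Mark genes were all lost without day 10 replicate 5 or day 10 replicate 2. Losses came to 3 without day 10 replicate 3 and to 4, 1, 3 and 4 without vehicle replicates 2, 4, 5 and 6, and the GC correction ended 5. The 8 libraries alone ended those of 2810430I11Rik, Gm44560, Mark4 and Syn3, limma-voom that of Mark4 and the DESeq2 test that of Syn3.

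Histone genes gave 0 calls in 3 own rows and 3 higher in 11 opposite rows, with medians of 0.16 and 0.10. Gm44297 and Gm44335, short rows annotated as miRNA that lie wholly within Hist1h2af and H2afx, held 43.2, 39.4, 43.6 and 54.8 and 45.2, 38.9, 63.95 and 52.1 CPM in vehicle. At day 10 they held 61.2, 71.4, 54.6 and 78.2 and 64.8, 67.97, 73.4 and 93.7. Gm49544, opposite the linker histone gene H1f0, held 92.96, 114, 136 and 115 and then 122, 207, 174 and 218, with replicate 1 inside vehicle. Cell division genes gave 2 calls lower in 8 own rows, where 3.15% of all tested rows were called lower. Ncapg, a condensin subunit opposite Lcorl, held 60.2, 55.4, 65.98 and 70.7 CPM and then 63.3, 16.5, 25.1 and 26.3, and replicate 1 was again inside vehicle. Knstrn, a spindle protein opposite the noncoding Gm14091, held 11.6, 10.3, 8.63 and 9.51 and then 2.57, 4.81, 5.65 and 0.571, with replicate 1 among the others.

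Translation genes gave 2 calls lower in 12 own rows, Mrps35 and the ribosomal protein gene Rps3a1, at 9.13, 12.9, 9.64 and 8.61 CPM in vehicle and 3.09, 0, 3.14 and 5.71 at day 10. Ribosomal protein genes have many near-identical pseudogenes, so the counting could split this row. Markers of tissues beside the nasal lining moved in single rows. Runx2os1, opposite the osteoblast factor gene Runx2, held 129, 102, 102 and 122 CPM and then 142, 176, 147 and 159. The erythroid factor Klf1 held 11.2, 14.5, 9.64 and 14.04 and then 16.98, 39.1, 21.97 and 20.6. Grin1, an NMDA receptor subunit across from the noncoding Grin1os, held 436, 455, 388 and 417 and then 541, 606, 562 and 605, with all day 10 libraries above vehicle and replicate 1 73.5% of the way.

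Atp2a1, the calcium pump of fast muscle across from Rabep2, held 104, 109, 101 and 82.9 CPM and then 93.1, 172, 152 and 173, with replicate 1 inside vehicle. The 13 rows opposite skeletal muscle genes gave 0 calls by edgeR (1 at an unadjusted p under 0.05) in spite of a median log2 fold change of 1.88. Their summed level ran from 56.4 to 314 CPM in vehicle and from 91.0 to 1710 at day 10, so the ranges overlapped and the day 10 libraries differed widely among themselves. The part of muscle tissue in any result above was not tested. The 10 calls named from Gm44297 to Atp2a1, beside Mrps35, were all lost without day 10 replicate 5, without day 10 replicate 2 and with the GC correction. Losses came to 6 without day 10 replicate 3 and to 9, 9, 7 and 9 without vehicle replicates 2, 4, 5 and 6. The 8 libraries alone ended 9, with Gm49544 the exception, and limma-voom ended those of Atp2a1, Gm44297 and Klf1.

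**Figure D5:**
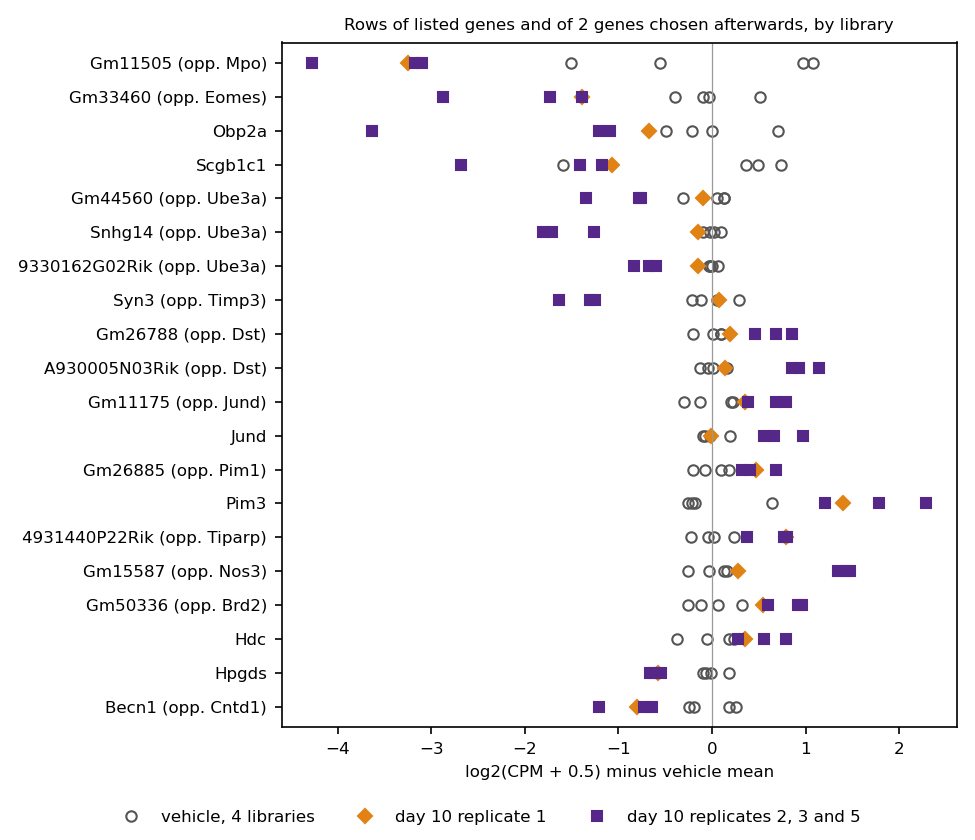
Log2(CPM + 0.5) of each library minus the vehicle mean for rows of listed genes and, in the last 2 lines, of 2 genes chosen after their values were seen. Open circles are vehicle, the orange diamond is day 10 replicate 1 and purple squares are day 10 replicates 2, 3 and 5. The diamond is near the circles in the 3 rows opposite Ube3a, though below all of them in Snhg14 and 9330162G02Rik. It is among the circles in Syn3, and with the squares in the rows opposite Mpo, Eomes and Pim1 and in Hpgds.

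Weighed against the CT010467.2 share, the calls did not hold at the threshold. With that share as a covariate, edgeR called 0 rows, and no other tool was run with it. In that fit 500 of 13181 rows (3.79%) had an unadjusted p under 0.05. This is a smaller share than that threshold would pass with no difference at all, so passing it singles out no row. The log2 fold change kept its direction in 807 of the 933 called rows and turned in 126, and the median ratio to the fold change without the covariate was 28.9%. Of the 87 named rows that were called, 79 kept their direction, 8 of them with a fold change as large or larger, and 8 turned. Every day 10 library had a larger share than every vehicle library, so the covariate takes up part of any difference between the groups. Of the 933 called rows, 82 (8.79%) kept an unadjusted p under 0.05, and 78 of these also had groups that did not overlap, 47 higher and 31 lower, of 538 such called rows (4.08% of all rows). Of the 78, 35 lay opposite a protein-coding gene, 26 higher and 9 lower. Replicate 1 had gone a median of 86.2% of the way in them, which the choice itself favours. The median GC content was 54.7% for those higher and 43.6% for those lower.

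Some of these rows were named after their values were seen, to show how they look by library. Gm43127 (chr9:110893111-110895899, minus strand), opposite Als2cl, a regulator of Rab5 on endosomes, held 118, 111, 104 and 99.2 CPM in vehicle and 218, 185, 159 and 179 at day 10 (log2 fold change 0.78 with an SE of 0.15, Benjamini-Hochberg adjusted p 0.00626 in edgeR). Replicate 1 was the highest of all 8 libraries. The row 4930404N11Rik, opposite Mfsd12, a cysteine transporter of lysosomes and melanosomes, held 163, 173, 195 and 165 and then 261, 257, 237 and 239 CPM (log2 fold change 0.52 with an SE of 0.12, adjusted p 0.0130 in edgeR). Gm10516, opposite the REST corepressor gene Rcor3, held 53.95, 44.5, 41.1 and 43.03 and then 73.05, 70.03, 69.7 and 77.7 (log2 fold change 0.67 with an SE of 0.16, adjusted p 0.0153 in edgeR). In all of them the 4 day 10 libraries lay above vehicle, closer together in the last pair than in Gm43127. With the covariate the log2 fold change was 0.91 for Gm43127, 0.50 for 4930404N11Rik and 0.71 for Gm10516.

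Gm15737, opposite the metalloproteinase gene Adamts9, held 92.5, 75.2, 68.01 and 74.7 CPM in vehicle and 121, 134, 117 and 126 at day 10 (log2 fold change 0.68 with an SE of 0.14, adjusted p 0.00922 in edgeR). By own rows, Perm1, a regulator of mitochondrial genes in muscle, held 303, 265, 311 and 288 and then 384, 459, 531 and 466, and Slc16a13, of the monocarboxylate transporter family, held 263, 246, 204 and 198 and then 316, 357, 276 and 319. With the covariate the log2 fold changes of Gm15737, Perm1 and Slc16a13 were 0.64, 0.46 and 0.44, against 0.68, 0.66 and 0.48 without it. Hpgds (chr6:65117293-65144908, minus strand), the prostaglandin D2 synthase of mast cells and Th2 cells, held 88.8, 92.3, 106 and 86.97 CPM and then 62.2, 63.9, 60.3 and 58.8 (log2 fold change -0.61 with an SE of 0.15, adjusted p 0.0167 in edgeR). Its 4 day 10 libraries spanned less than 6 CPM, below all of vehicle, and its log2 fold change with the covariate was -0.63. It stands beside Hdc, the other named gene of histamine and prostaglandin synthesis, whose row was higher.

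Becn1, a core protein of autophagy opposite Cntd1, held 45.2, 34.96, 47.7 and 33.5 CPM in vehicle and 22.6, 25.4, 16.9 and 23.99 at day 10 (log2 fold change -0.85 with an SE of 0.21, adjusted p 0.0167 in edgeR), again with replicate 1 among the others. With the covariate it stood at -1.04 on the log2 scale, and Pfkp at -0.99. Of these 8 rows, 5 calls were lost without day 10 replicate 5, 2 without day 10 replicate 2 and 4 with the GC correction. Losses were 1 without day 10 replicate 3 and 2, 0, 1 and 1 without vehicle replicates 2, 4, 5 and 6. Gm43127, Gm15737 and Perm1 kept their calls without day 10 replicate 5. The other 13 named rows among the 78 were Cdk19os, 5330438I03Rik, Ppfia2, Pfkp, Rps6kb1, Dach1, Abi3bp, Uba6, Gm33460, 4931440P22Rik, Grin1, Pim3 and Gm11505.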

How the data were processed

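RNA of nasal tissue was measured as gene counts in 12 mouse libraries in 3 groups, 8 of which form this comparison. The authors deposited raw counts from HTSeq, following FastQC, Trim Galore and STAR on mm10, per the submitters' processing notes. A SMARTER mRNA-Seq kit was used on total RNA, per the labels. Versions of these tools, their annotation and how HTSeq treated strand are not given in these sources; the last of these decides which of 2 overlapping genes a read counts for.

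Rows were placed in GENCODE M21 (GRCm38), which holds 55227 of the 55487 identifiers, with bedtools 2.31.1 and Python 3.11.15. Low rows were removed by filterByExpr, libraries were scaled by TMM, and edgeR 4.0.16 (R 4.3.3) gave quasi-likelihood tests. All 12 libraries entered 1 model with group as the sole term, and Benjamini-Hochberg adjustment ran over the 13181 tested rows, which held 98.3% of counts. The SE of a fold change is its log2 value over the root of F. The position of replicate 1 uses log2(CPM + 0.5). The share of CT010467.2 was compared by exact permutation (scipy 1.17.1). The fit was tested on simulated data.

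Named rows were called at 0.05 and are of 3 kinds. The first 2 kinds have groups that do not overlap and a mean CPM of at least 20: the 10 largest rises and falls opposite protein-coding genes, and the 6 largest of each among named coding genes with no opposite gene. The third is the called members of 32 lists, at most 4 a list by p, whatever their level. Rows named outside this rule are said to be so, apart from CT010467.1 and Gm15883, which were also chosen after their values were seen. The members, lists and rules were chosen with earlier results of these data known. Alternatives were DESeq2 (1.42.0) size factors and test, upper-quartile scaling, the row CT010467.2 left out before scaling, no filter, a filter of 10 CPM in 4 libraries, limma-voom (3.58.1), a fit of the 8 libraries by themselves, a block for the replicate number, the CT010467.2 share as a covariate, a GC correction (loess, span 0.5), each library left out, and day 10 replicate 1 alone.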

Additional observations from a re-analysis of the deposited data

Results flagged for a closer look

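In 176 groups of 4 libraries, those of the 88 named rows, 16 held a highest or lowest library that stood far from the other 3, with a gap past Dixon's 95% critical value for 4 values. Chance flags about 1 in 20 groups. Values are in CPM.

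Day 10 replicate 1 was the library set apart in 5 of the day 10 groups. It held 378 in Cd247 against 220 to 240 in the others, 53.5 in Etfrf1 against 28.8 to 30.3, 246 in Srpk2 against 84.5 to 104, 4015 in Syn3 against 1229 to 1603, and 72.5 in Gm15587 against 152 to 167. In all 5 it lay toward vehicle, and its CT010467.2 share was 11.2% against 17.9% to 25.5%.

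Vehicle replicate 5 was set apart in 7 vehicle groups. It was low in Cd247, at 351 against 376 to 378, and in Marchf9, at 13.2 against 20.3 to 20.98. It was high in Ccdc152, at 375 against 310.0 to 314, in Etfrf1, at 82.7 against 69.4 to 71.1, in Pfkp, at 54.3 against 48.5 to 48.97, in Srpk2, at 283 against 259 to 260.5, and in Mmp9, at 200.5 against 146 to 152. In Cd247 and Mmp9 it lay toward day 10, and in the other 5 rows it lay away from day 10.

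Single rows gave the others. Day 10 replicate 5 held 182 in 2810430I11Rik against 161 to 162, day 10 replicate 2 held 13.04 in Bpifb3 against 6.17 to 6.91, and day 10 replicate 3 held 32.01 in 4931440P22Rik against 42.3 to 43.2. Vehicle replicate 6 held 4.08 in Pim3 against 1.96 to 2.08.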

How the results depend on the processing

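The calls, 933 in all with 518 higher and 415 lower, depended on libraries and on 2 library measures more than on scaling or test. Scaling, filters, DESeq2 and limma-voom kept the total within 1.5 times, with 911 to 1281 calls. Of these alternatives, DESeq2 size factors and upper-quartile scaling moved the share of calls that were higher from 55.5% to 61.2% and 51.0%. The 8 libraries alone gave 423 calls (260 higher, 163 lower). The GC correction gave 403 (328 and 75), so 81.4% were higher. The CT010467.2 share as a covariate gave 0 (0 and 0), with 500 at an unadjusted p under 0.05, and day 10 replicate 1 alone gave 0 (0 and 0), with 912. With 1 library left out, calls ran from 95 to 2684, those higher from 71 to 1220 and those lower from 24 to 1464. The lowest were without day 10 replicate 5 and the highest without day 10 replicate 1. The count was 192 and 466 without day 10 replicates 2 and 3, and 337, 399, 663 and 429 without vehicle replicates 2, 4, 5 and 6. Of the 382 listed rows, 53 were called. This became 24 with the 8 libraries alone, 24 with the GC correction, 0 with the covariate, 0 with replicate 1 alone and 4 to 99 with 1 library left out. Of 88 named rows, 87 of them called, 87 stood as before without day 10 replicate 1, against 38, 56 and 21 without day 10 replicates 2, 3 and 5 and 45 of 87 with the GC correction. The fit of the 8 libraries alone, which tested 86 of the 88 named rows, ended 29 of the named calls and limma-voom 10.

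The difference in CT010467.2 share was 8.68 to 13.5 points with 1 library left out. The exact p was then 0.0571 each time, the smallest that 4 against 3 can give. With the share as a covariate, 79 of the 87 named calls kept the direction of their log2 fold change and the other 8 turned, to -0.119 for Jund, 0.042 for Ncapg, -0.015 for Gm49544, -0.104 for CT010467.1, -0.134 for H2-DMa, -0.023 for 1700034H15Rik, -0.028 for Atp2a1 and 0.110 for Ccdc39. With replicate 1 alone they turned to -0.015 for Jund, 0.031 for Cd247, 0.013 for Ncapg, 0.062 for Syn3, -0.014 for H2-DMa, -0.091 for Atp2a1 and 0.014 for Ccdc39. The cause was not tested. The groups shared the replicate numbers 2 and 5, and the deviations of same-numbered libraries correlated at -0.035 and 0.121, the second being the highest of all pairs of a vehicle and a day 10 library. The 2 values differ in sign, and 2 pairs are too few to show whether a shared number is more than a label. With the number as a replicate block, 1701 rows were called, 777 higher and 924 lower. The numbers of day 10 replicates 1 and 3 and of vehicle replicate 4 occur in no other library. The block fits these libraries exactly, so they add nothing to its contrast, and little is left to estimate the spread. In that fit 15 named rows were no longer called: 4931440P22Rik, Becn1, Bpifb3, Bpifb6, Edem1, Gm28523, Hdc, Hpgds, Knstrn, Pim3, Rps3a1, Rps6kb1, Runx2os1, Taldo1 and Tigit. Depth limits rows near 3 counts, such as Edem1, Pim3, Mark4, Taldo1 and the row opposite Mpo, whose fold changes carry wide errors.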
